A study of Mus with 21 samples.

Results

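Day-4 skin wounds of mice that had been covered with a GelMA hydrogel of pH 6.4 carrying either acidic fibroblast growth factor (aFGF, the product of Fgf1) or basic fibroblast growth factor (bFGF, the product of Fgf2) were compared by RNA sequencing. The comparison used the 3 libraries of the aFGF group and the 3 libraries of the bFGF group at that pH, out of 21 libraries in 7 groups, and all 18806 genes listed in the count tables. GelMA is gelatin carrying methacryloyl groups, which sets to a gel under ultraviolet light, and its pH was set before the growth factor was added. All mice were wild-type C57BL/6 females of 8 weeks, with a splinted full-thickness punch wound of 8 mm diameter on either side of the back. The other libraries were 3 of control wounds that received no hydrogel and 12 of wounds that received aFGF or bFGF in gels of pH 7.4 or 8.4. The 3 libraries of each group were labelled as biological replicates. No group received a gel without growth factor, so a difference between aFGF and bFGF says nothing of what the gel or its pH did by itself. Whether a library held 1 wound or both wounds of a mouse, and the species of the added proteins, were not given in the sources used here.

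aFGF and bFGF are small secreted proteins held by heparan sulfate in the matrix. They act through FGF receptors, tyrosine kinases that signal largely through RAS and the ERK kinases, and ERK in turn switches on its own inhibitors (Sprouty proteins and dual-specificity phosphatases) and fast-responding transcription factors. aFGF binds all FGF receptor isoforms, whereas bFGF binds poorly to the receptor 2 isoform that keratinocytes carry. At day 4 a mouse skin wound is still inflamed, keratinocytes are migrating in from its edge, and fibroblasts and vessels are beginning to form granulation tissue. Migrating keratinocytes make EGF receptor ligands, hyaluronan and collagenases, and the matrix metalloproteinases (MMPs) of keratinocytes, fibroblasts and macrophages cut the matrix they move through.

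The 6 libraries held between 34362558 and 37817833 counts (median 37029867), so differences in depth were small. Levels are given below as CPM, the counts of a gene scaled to the size of its library with edgeR's TMM factors. Krt14, the keratin of basal epidermis, stood between 1854 and 2611 CPM, and the fibroblast collagen gene Col1a1 between 9707 and 22136 CPM, in the 6 libraries. Replicate 3 of the aFGF group stood apart by its skeletal muscle genes: the mean log2 CPM of 30 such genes was 8.75 there and between 4.34 and 6.13 in the other 5 libraries. That library also held 24 genes that were high in it alone among the 6, including Tcap, Myh2 and Casq1. Control replicate 2 held far more inflammatory RNA than the other controls (Il1b at 1795 CPM against 155 and 48.9 CPM), and controls are therefore given by library.

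edgeR's quasi-likelihood test called 0 of 14994 genes (0%) at a Benjamini-Hochberg adjusted p under 0.05 with a log2 fold change beyond 0.58. The smallest adjusted p was 0.584, and 1223 genes (8.16%) had an unadjusted p under 0.05, 765 of them higher with aFGF (5.1%) and 458 lower (3.05%). In 2226 genes (14.8%) the 3 aFGF libraries did not overlap the 3 bFGF libraries, with the aFGF libraries above in 1270 (8.47%) and below in 956 (6.38%). DESeq2, run as the alternative, called 119 of 15417 genes (0.772%), 89 higher with aFGF (0.577%) and 30 lower (0.195%). The DESeq2 count depended on single libraries: it was 42 without bFGF replicate 2, 280 without bFGF replicate 1 and 284 without aFGF replicate 3. Of the 119 genes, 25 were called without each of the 6 libraries in turn. They were the keratinocyte and signalling genes Areg, Has3, Tns4, Aqp3, Ly6m, Alkal2, Map3k6, Ntrk2 and Arap2, the haemoglobin and haem genes Hba-a1, Hba-a2, Hbb-bs, Hbb-bt and Alas2, and the metabolic and fat genes Pdk4, Plin4, Ppargc1a, Mrap, Rasd1 and Chchd10, all higher with aFGF. Mmp13, Mmp10, Adgb, Kcne3 and D430019H16Rik were lower. The text below calls a gene "called" only by the tool it names, and every edgeR adjusted p at pH 6.4 is 0.584 or more.

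**Figure D1:**
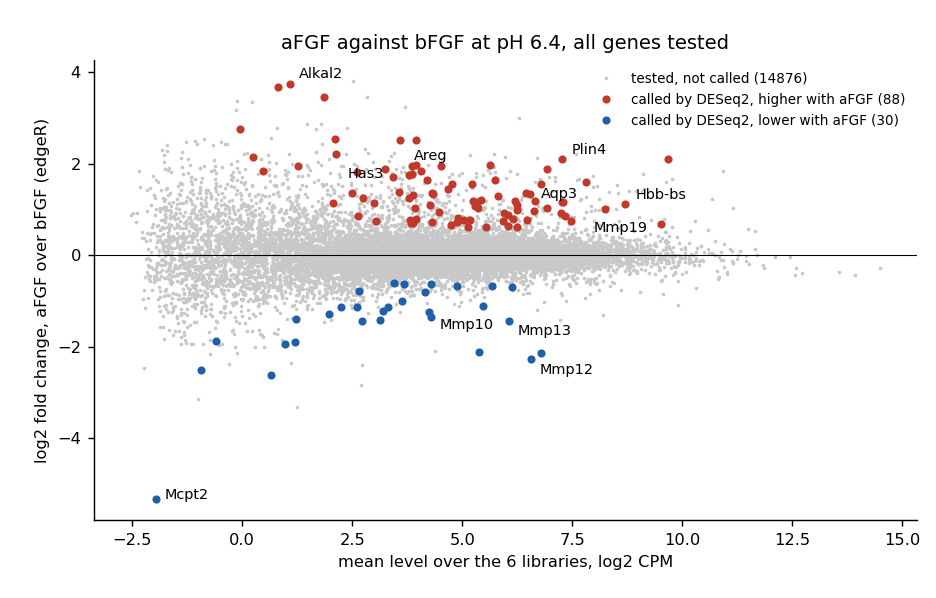
Log2 fold change of aFGF over bFGF at pH 6.4 (edgeR) against the mean level over the 6 libraries (log2 CPM), 1 point a gene. The 88 red and 30 blue points are DESeq2 calls among the edgeR-tested genes, higher and lower with aFGF, and the grey points are the other genes tested; Alkal2 and Mcpt2 lie farthest out among the named genes.

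From the list of EGF receptor ligands and receptors, DESeq2 called Areg and Nrg1, both higher in the aFGF wounds, and edgeR called no gene. Areg, which encodes amphiregulin, stood at 30.2, 17.2 and 31.3 CPM with aFGF and at 8.95, 7.9 and 4.95 CPM with bFGF, where the controls had 7.98, 7.53 and 6.48 CPM. All 3 aFGF libraries thus lay above every bFGF and control library, and the bFGF wounds lay at the control level. The mean was 3.61 times that with bFGF (log2 fold change 1.84 ± 0.31 SE, n = 3 against 3, DESeq2 adjusted p = 4.15e-05, edgeR adjusted p = 0.584). Nrg1, the neuregulin that binds ErbB3 and ErbB4, was at 23.6, 25.5 and 37.5 CPM with aFGF and at 8.67, 10.9 and 14.3 CPM with bFGF. These groups did not overlap either (1.35 ± 0.26, DESeq2 adjusted p = 0.00124), but DESeq2 did not call Nrg1 without bFGF replicate 2 (adjusted p = 0.065). Ereg, which encodes epiregulin, ran from 38.8 to 155 CPM with aFGF and from 10.8 to 36.3 CPM with bFGF, and no tool called it (1.94 ± 0.62, DESeq2 adjusted p = 0.0516). Epgn (epigen, 0.86 ± 0.25) and Hbegf (heparin-binding EGF-like factor, 0.83 ± 0.38) were not called by either tool, nor were Tgfa (0.51 ± 0.20) and the receptor gene Egfr, whose 3 aFGF libraries at 109 to 121 CPM lay above 85.9 to 97.2 CPM with bFGF (0.32 ± 0.10). Over the 12 genes of the list of EGF receptor ligands and receptors, 10 were higher with aFGF, 6 of them at an unadjusted p under 0.05, which 5.1% of all genes tested reached in that direction, and 5 without overlap, against 8.47% of all genes. The median log2 fold change was 0.68, against 0.01 over all genes tested, and it was 0.34 without aFGF replicate 3. The smallest differences were those of Btc (0.05), Erbb2 (-0.01) and Adam17, the protease that sheds these ligands (-0.18).

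Several further genes that keratinocytes express were higher with aFGF, although lists of epidermal genes were split, as given below. Has3, a hyaluronan synthase, was at 25.7, 19.1 and 22.8 CPM with aFGF, at 5.96, 9.05 and 4.73 CPM with bFGF and at 5.32, 9.21 and 6.17 CPM in the controls. The aFGF libraries lay above all others, by 3.42 times on the means of the growth factor groups (1.77 ± 0.26, DESeq2 adjusted p = 3.45e-06). Aqp3, the water and glycerol channel of the epidermis, was at 136, 111 and 155 CPM against 66.4, 54.9 and 36.6 CPM (1.34 ± 0.24, DESeq2 adjusted p = 0.00025). Tns4, a focal adhesion protein that EGF signalling induces, was at 55, 44.9 and 59.4 CPM against 28.8, 22.8 and 23.4 CPM (1.08 ± 0.15, DESeq2 adjusted p = 1.54e-05). For Aqp3 and Tns4, too, the 3 controls (51.8 to 72.3 CPM and 21.6 to 29.5 CPM) lay below every aFGF library. The vitamin D receptor gene Vdr was at 58.6, 33.5 and 65.5 CPM against 20.6, 22.2 and 26.5 CPM (1.18 ± 0.26), with control replicate 2 at 47.6 CPM inside the aFGF range. DESeq2 called Vdr (adjusted p = 0.00811), but not without aFGF replicate 1 (0.13) or bFGF replicate 2 (0.18). Lypd3, a urokinase receptor relative of suprabasal keratinocytes, was higher by 0.77 ± 0.16 and lost its DESeq2 call (adjusted p = 0.0113) without aFGF replicate 1 (0.06), bFGF replicate 2 (0.16) or bFGF replicate 3 (0.083). Grhl3, a transcription factor of epidermal barrier formation and wound closure, was at 0.73 ± 0.20 and was called by neither tool.

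The keratin genes had smaller differences. Krt14 (0.14 ± 0.18) and Krt6a, a keratin of wounded epidermis (0.13 ± 0.15), differed by less than their standard errors. Of 21 genes of wound-edge and basal epidermis, 15 were higher with aFGF, 4 of them at an unadjusted p under 0.05: the integrin gene Itga3 (0.81 ± 0.21), the cadherin genes Cdh3 (0.65 ± 0.19) and Dsg3 (0.56 ± 0.16), and Trp63, the master regulator of stratified epithelium (0.47 ± 0.15). The median of the list was 0.17. Over all genes tested, 5.1% were higher and 3.05% lower at that p. Of 23 cornified and suprabasal genes, 15 were lower with aFGF, with 1 at an unadjusted p under 0.05 in each direction. Their median of -0.20 was -0.00044 without bFGF replicate 1, -0.052 without aFGF replicate 1, -0.39 without aFGF replicate 3 and 0.14 with the level of fat cell genes as a covariate, a fit described below.

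MMP genes differed in both directions. Mmp13, a collagenase of wound-edge keratinocytes and fibroblasts, was at 32.3, 40.2 and 35.6 CPM with aFGF and at 75.9, 98.5 and 117 CPM with bFGF. The bFGF libraries were 2.7 times higher on the mean and did not overlap the aFGF libraries (log2 fold change -1.44 ± 0.18, DESeq2 adjusted p = 1.1e-07, edgeR adjusted p = 0.584). The controls lay at both ends, at 21.1, 126 and 19.3 CPM. Mmp10, stromelysin-2 of the migrating epidermal tip, was at 12.1, 12.4 and 9.41 CPM with aFGF and at 27.1, 30.8 and 22.2 CPM with bFGF (-1.25 ± 0.17, DESeq2 adjusted p = 7.35e-06), and the controls, at 1.5, 9.47 and 0.882 CPM, lay at or below the aFGF level. Mmp12, the macrophage metalloelastase, was at 25.6, 54.5 and 17.5 CPM against 103, 90.5 and 276 CPM (-2.27 ± 0.58, DESeq2 adjusted p = 0.00358). This was the widest fold of the list, but also the least even: the DESeq2 call was lost without aFGF replicate 1 (0.073), aFGF replicate 3 (0.32), bFGF replicate 1 (0.11) or bFGF replicate 3 (0.063). Mmp3, stromelysin-1, was at 795, 549 and 494 CPM against 806, 1030 and 812 CPM (-0.54 ± 0.21). The gelatinase gene Mmp9 was at 413, 303 and 162 CPM against 447, 470 and 549 CPM (-0.75 ± 0.31), and neither Mmp3 nor Mmp9 was called by either tool.

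Mmp19, an MMP of basal keratinocytes, macrophages and vessels, ran opposite. It was at 504, 299 and 409 CPM with aFGF and at 171, 208 and 215 CPM with bFGF, with controls between 181 and 258 CPM. All 3 aFGF libraries lay above the other 6 (1.02 ± 0.21, DESeq2 adjusted p = 0.00298, lost without bFGF replicate 2 at 0.065). The matrix protease gene Adamts1 (0.67 ± 0.26) and the inhibitor gene Timp4 (1.99 ± 0.73, at no more than 4.18 CPM) were also higher with aFGF without a call. Over the 22 MMP, ADAMTS and TIMP genes tested, 3 were higher and 5 lower with aFGF at an unadjusted p under 0.05, DESeq2 called 1 and 3, and the median was -0.04. Over all genes, 5.1% were higher and 3.05% lower at that p, and DESeq2 called 0.577% and 0.195%. Mmp2 and Mmp14, the abundant fibroblast MMPs, were at -0.39 ± 0.26 and -0.43 ± 0.26 with overlapping groups.

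**Figure D2:**
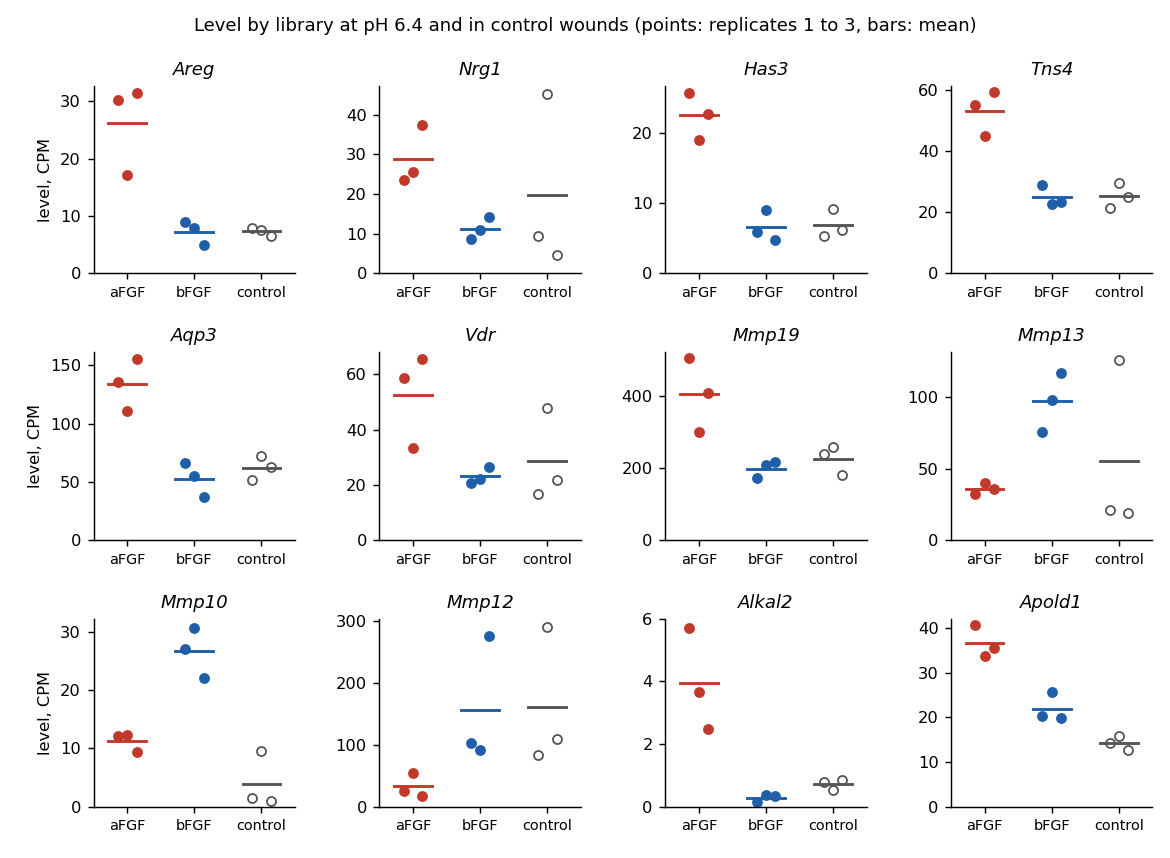
Level in CPM (linear axis, from 0) of 12 genes in each aFGF and bFGF library at pH 6.4 and in each control library; points are libraries, in the order of their replicate numbers, and bars are group means. The aFGF points of Areg, Has3, Tns4, Aqp3, Mmp19, Alkal2 and Apold1 lie above all bFGF and control points, those of Mmp13, Mmp10 and Mmp12 lie below all bFGF points, and control replicate 2 lies far above the other controls for Nrg1, Mmp13, Mmp10 and Mmp12.

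The widest fold among genes that DESeq2 called without each library was that of Alkal2, which encodes an activating ligand of the receptor kinases ALK and LTK. It was at 5.72, 3.66 and 2.47 CPM with aFGF, at 0.141, 0.384 and 0.336 CPM with bFGF and at 0.515 to 0.854 CPM in the controls (3.75 ± 0.52, DESeq2 adjusted p = 3.4e-08). The aFGF libraries lay above, and the bFGF libraries below, every control. Ly6m, a Ly6 family gene, was at 14.6, 15.4 and 20.8 CPM against 5.99, 7.85 and 5.71 CPM (1.37 ± 0.22, DESeq2 adjusted p = 5.02e-05). Map3k6, a stress kinase gene, was higher by 1.03 ± 0.17 (DESeq2 adjusted p = 0.000476) and Ntrk2, the receptor for brain-derived neurotrophic factor, by 1.29 ± 0.25 (0.0012). Ntrk2 in the controls, at 59.7 to 73.6 CPM, was close to the aFGF range of 71.8 to 86.1 CPM and far above the bFGF range of 22.7 to 45.1 CPM.

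Further leading genes had smaller folds, with standard errors of 0.10 to 0.15. The transcriptional coregulator genes Ncoa1 (0.61 ± 0.10) and Nrip1 (0.62 ± 0.10), the mitochondrial calcium gene Mcur1 (0.57 ± 0.10), the small GTPase gene Arl4a (0.82 ± 0.14), the insulin receptor substrate gene Irs2 (0.87 ± 0.15) and the kinase genes Pim3 (0.80 ± 0.15) and Sgk1 (0.76 ± 0.15) were higher with aFGF in all 3 libraries. Irs2, for example, was at 92.4, 82.3 and 82.2 CPM against 39.4, 43.1 and 57.3 CPM, with controls between 44.1 and 51.6 CPM. DESeq2 called each of them except Mcur1, whose fold was too small. It called none of the 6 in every fit that left out a library: without bFGF replicate 2 the adjusted p was 0.067 for Nrip1, 0.083 for Arl4a, 0.12 for Irs2, 0.17 for Pim3 and 0.19 for Sgk1. Without aFGF replicate 1 it was 0.066 for Irs2 and 0.09 for Pim3. Without aFGF replicate 2 it was 0.056 for Arl4a and 0.089 for Sgk1, and without bFGF replicate 3 it was 0.06 for Sgk1. Sgk1 was called in 3, Nrip1, Arl4a, Irs2 and Pim3 in 4 and Ncoa1 in 5 of the 6 fits.

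Apold1, a gene of endothelial cells that is switched on quickly by vessel stress and is named by the study, was at 40.7, 33.7 and 35.7 CPM with aFGF, at 20.3, 25.7 and 19.8 CPM with bFGF and at 12.7 to 15.7 CPM in the controls. The 3 groups did not overlap, with aFGF the highest (0.74 ± 0.14, DESeq2 adjusted p = 0.0101). The exact two-sided permutation test of aFGF against bFGF gave p = 0.1, the smallest that 3 against 3 libraries allow. The study names Apold1 from wounds under aFGF gels of weakly acidic and neutral pH, a different comparison that these values do not test. DESeq2 did not call Apold1 without aFGF replicate 1 (0.15), bFGF replicate 1 (0.051) or bFGF replicate 3 (0.081). Among other vessel genes, Edn1 (endothelin-1, 0.71 ± 0.16) and Sele (E-selectin, 0.93 ± 0.24) were higher and Ecscr, an endothelial surface protein gene, lower (-0.31 ± 0.12) at an unadjusted p under 0.05. DESeq2 called Edn1 (adjusted p = 0.0267), but in 1 of the 6 fits that left out a library. Of the 26 endothelial genes, 18 were lower with aFGF. Of the 24 immediate early genes, which include Apold1, 6 were higher and 1 lower at an unadjusted p under 0.05, DESeq2 called 3, and the median was 0.27 (0.00 without aFGF replicate 3). The shares over all genes were 5.1% and 3.05% at that p and 0.577% for higher DESeq2 calls. Fosb, an AP-1 subunit, was at 59.7, 80.2 and 106 CPM against 17.4, 16.8 and 43.9 CPM (1.65 ± 0.43, DESeq2 adjusted p = 0.0131, lost without aFGF replicate 2 at 0.086, aFGF replicate 3 or bFGF replicate 1 at 0.058 each, or bFGF replicate 2 at 0.25). The nuclear receptor genes Nr4a2 (1.32 ± 0.36) and Nr4a3 (1.42 ± 0.53) and the Krüppel-like factor genes Klf4 (0.84 ± 0.25) and Klf6 (0.37 ± 0.15) were higher. Jun was lower, at 151 to 162 CPM against 180 to 203 CPM (-0.31 ± 0.10), and Fos and Egr1 had overlapping groups.

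Genes lower with aFGF included some with little spread. S1pr2, a sphingosine-1-phosphate receptor that holds back cell migration, was at 54.9, 51.3 and 49.4 CPM with aFGF, at 73.7, 75.4 and 78.2 CPM with bFGF and at 72.1 to 85.5 CPM in the controls. The aFGF libraries lay below the other 6 by a narrow but even margin (-0.55 ± 0.09, edgeR adjusted p = 0.584, DESeq2 adjusted p = 0.00025), a fold under the 0.58 that a call needed. Adgb, androglobin, was at 0.789, 0.81 and 0.833 CPM against 2.74, 3.24 and 3.41 CPM (-1.95 ± 0.28), and Kcne3, a potassium channel subunit, at 3.16, 2.64 and 3.19 CPM against 6.95, 6.2 and 6.38 CPM (-1.12 ± 0.20); these are low levels, and D430019H16Rik (-1.90 ± 0.35) was lower still. Among Wnt and adhesion genes, Fzd2 (-1.11 ± 0.29), Dvl2 (-0.62 ± 0.12) and the protocadherin gene Pcdh18 (-1.21 ± 0.26) were DESeq2 calls that were lost without bFGF replicate 2 (adjusted p = 0.33, 0.074 and 0.091). Fzd2 and Dvl2 were lost without aFGF replicate 1 too (0.12 and 0.15), Fzd2 without bFGF replicate 1 (0.17) and Dvl2 without bFGF replicate 3 (0.076). The hair and cornified envelope genes Tchh (-1.42 ± 0.32) and Sprr2f (-1.34 ± 0.28) lost their calls without bFGF replicate 2 (0.16 and 0.1), aFGF replicate 1 (0.074 and 0.069) or aFGF replicate 2 (0.089 and 0.051), and Tchh also without bFGF replicate 3 (0.074). Mcpt2, a mast cell protease gene, had 1 read in the 3 aFGF libraries together and between 0.384 and 0.706 CPM with bFGF, too little to give a fold.

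Inflammatory cytokine genes had wide spread, and Il1a and Ccl3, which DESeq2 called, were lower with aFGF. Il1a, interleukin-1 alpha, was at 20.6, 16.9 and 9.77 CPM against 43.2, 127 and 33.3 CPM (-2.12 ± 0.55, DESeq2 adjusted p = 0.00699), and the chemokine gene Ccl3 at 57.7, 40.4 and 26.2 CPM against 82.3, 369 and 88.3 CPM (-2.13 ± 0.65, DESeq2 adjusted p = 0.024). bFGF replicate 2 held the highest level of both, and without it the log2 fold changes were -1.30 and -1.07 and DESeq2 called neither (0.099 and 0.3). Ccl3 was not called without aFGF replicate 2 (0.12) or aFGF replicate 3 (0.5) either. Il1b at 446, 1528 and 937 CPM with bFGF overlapped 575, 496 and 556 CPM with aFGF (-0.85 ± 0.40), and so did Nos2 (-1.30 ± 0.64). Tnf stood at -0.01 ± 0.28, Il6 at 1.07 ± 0.77 and the chemokine gene Cxcl1 at 0.57 ± 0.72, and neither tool called them.

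Of 18 macrophage genes of the alternatively activated (M2) kind, 13 were higher and 5 lower with aFGF, 3 of the higher and 0 of the lower ones at an unadjusted p under 0.05, with a median of 0.39 that became 0.14 without aFGF replicate 3 and 0.82 without bFGF replicate 3. Over all genes tested, 5.1% were higher and 3.05% lower at that p. Mrc1, which encodes CD206, the M2 marker the study stained, was at 690, 658 and 1021 CPM with aFGF and at 408, 418 and 557 CPM with bFGF. The groups did not overlap (0.77 ± 0.23, exact two-sided permutation p = 0.1, edgeR adjusted p = 0.587, DESeq2 adjusted p = 0.0992), and the controls, at 690 to 837 CPM, lay inside the aFGF range. Cd163, a haemoglobin scavenger receptor, was at 468, 401 and 420 CPM against 207, 231 and 367 CPM (0.67 ± 0.23), and the lectin gene Clec10a was higher by 0.97 ± 0.39; neither was called. The lower members were led by Arg1, arginase-1, at -1.09 ± 0.66 and the chemokine genes Ccl22 (-1.05 ± 0.79), Ccl17 (-0.81 ± 1.01) and Ccl24 (-0.45 ± 0.90), all with overlapping groups. Ccr7, the M1 marker that was stained, ran from 13.7 to 23 CPM with aFGF and from 10.8 to 26.7 CPM with bFGF (0.16 ± 0.40, exact p = 0.6). The 16 M1 genes were split 8 to 8 with a median of 0.08 and 0 at an unadjusted p under 0.05. That median was -0.39 without aFGF replicate 2 and 0.15 without bFGF replicate 3. The 18 general monocyte and macrophage genes had a median of 0.07 (-0.04 to 0.18 with 1 library left out). Of 72 interferon-response genes, 42 were higher and 30 lower, with 1 at an unadjusted p under 0.05. Their median was 0.03 (-0.11 to 0.18 with 1 library left out). Of the interferon-linked genes that the study names, Oas3 was at -0.07 ± 0.27, Rnf213 at 0.06 ± 0.13, F830016B08Rik at 0.35 ± 0.31, Gm12185 at -0.87 ± 0.66 and Il15 at -0.80 ± 0.33, with Tnfsf14, a TNF family cytokine, at -0.39 ± 0.32. Exact permutation p values for these 6 ran from 0.3 to 0.8. Epx, the eosinophil peroxidase gene that the study also names, was at 0 CPM in 5 of the 6 libraries and at 0.028 CPM in the other one, too little to test. The study names Epx and the 6 genes before it from wounds under aFGF gels of weakly acidic and neutral pH. It does not name them from aFGF against bFGF, so the values here do not test its result.

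Fat cell genes were higher in the aFGF wounds, and the level of these genes moved with many of the differences above. All 23 adipocyte genes tested were higher with aFGF, 15 at an unadjusted p under 0.05 (5.1% of all genes tested), with a median log2 fold change of 1.67 against 0.01 over all genes. Perilipin-4 (Plin4) was at 302, 302 and 150 CPM with aFGF and at 85.8, 30.9 and 57.5 CPM with bFGF (2.10 ± 0.43, DESeq2 adjusted p = 0.000167), adipsin (Cfd) at 1911, 1502 and 587 CPM against 528, 110 and 288 CPM (2.10 ± 0.64) and adiponectin (Adipoq) at 207, 286 and 85.5 CPM against 104, 30 and 40.2 CPM (1.72 ± 0.59). Plin4 and Cfd did not overlap, whereas Adipoq did. Control wounds ranged more widely than either, from 57 to 435 CPM for Plin4 and from 344 to 3958 CPM for Cfd. In bulk tissue, fewer fat cells and less RNA of these genes per cell cannot be told apart. The mean log2 CPM of the list was 7.17, 7.10 and 6.20 with aFGF, 6.05, 4.67 and 5.28 with bFGF, and 8.22, 5.49 and 7.70 in the controls. In a fit over all 21 libraries with that score as a covariate, added after the difference had been seen, the median of the list was -0.13. The score is the mean of these same genes, so the fall of their median toward 0 was built into the fit. The median size of the log2 fold change over the DESeq2 calls was 0.70 in place of 1.20. In 40 of the 88 higher calls and 5 of the lower ones it shrank below 50% of its value. Areg (1.59), Has3 (1.92), Tns4 (1.21), Aqp3 (1.39), Vdr (1.52), Mmp19 (1.01), Mmp12 (-1.66), Alkal2 (2.65) and Adgb (-1.53) stayed large there, while Mmp13 (-0.56), Apold1 (0.27), Arl4a (0.23), Mcur1 (0.18), Sprr2f (-0.36) and Il1a (-0.84) were much smaller.

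Genes of blood, liver and muscle also moved with the groups. All 8 red blood cell genes tested were higher with aFGF, 7 of them without overlap, 6 called by DESeq2, with a median of 1.25. Over all genes tested, 8.47% lay above without overlap and 0.577% were DESeq2 calls in that direction. The beta-globin gene Hbb-bs was at 494, 755 and 448 CPM against 264, 266 and 251 CPM (1.11 ± 0.21, DESeq2 adjusted p = 0.000881), and Alas2, the haem synthesis enzyme of red cell precursors, at 34.8, 56.2 and 30.8 CPM against 16, 13.1 and 12.2 CPM (1.56 ± 0.25). The controls, at 362 to 629 CPM for Hbb-bs, overlapped the aFGF wounds and lay above the bFGF wounds. All 11 liver-type secretory genes tested were higher too (median 1.64), mostly at low levels: Alb ran from 2.28 to 9.28 CPM against 0.796 to 2.04 CPM. All 30 skeletal muscle genes were higher with a median of 1.43, but 0 had an unadjusted p under 0.05, and without aFGF replicate 3 the median was -1.22. Pdk4, the kinase that switches muscle and fat from glucose to fatty acids, and Ppargc1a, a mitochondrial coactivator, were DESeq2 calls (1.97 ± 0.36 and 3.69 ± 0.82) with their highest level in that library, 122 and 6.94 CPM. Without it they were at 1.46 and 2.46 and were still called. The part of these tissues in the other differences was not tested.

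**Figure D3:**
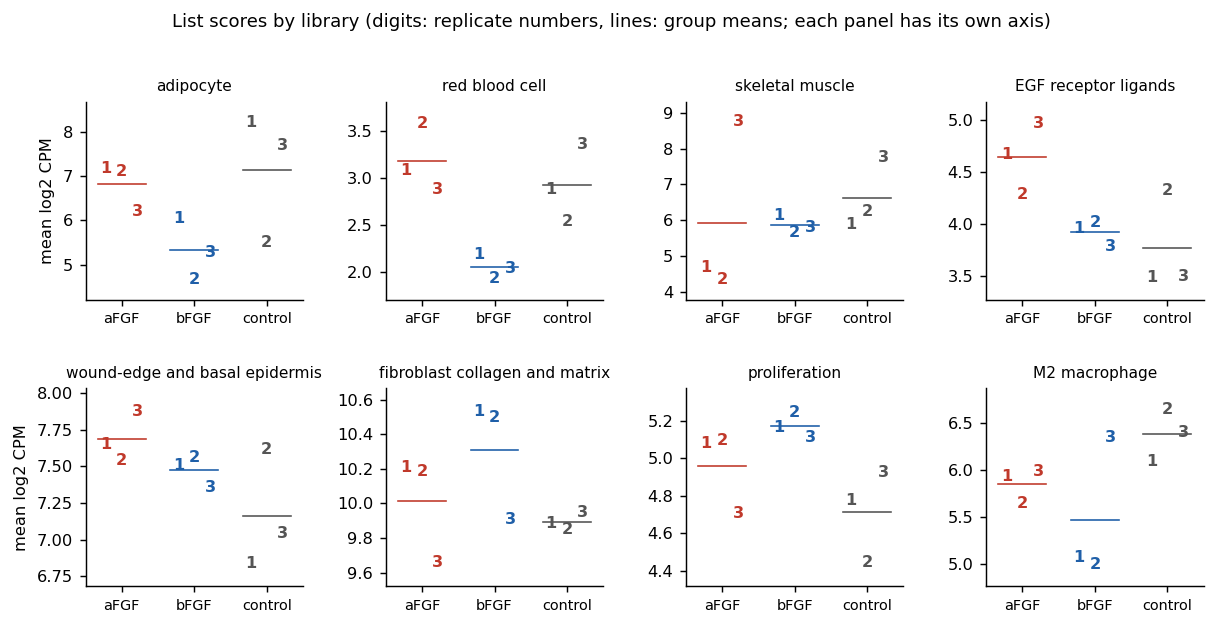
Mean log2 CPM of 8 gene lists in each library; digits are replicate numbers, horizontal lines are group means, and each panel has its own axis. Adipocyte, red blood cell and EGF receptor scores of the 3 aFGF libraries lie above those of the 3 bFGF libraries, and the skeletal muscle score is set apart in aFGF replicate 3 alone, at 8.75.

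In the FGF system, the receptor and feedback lists had medians near 0 (0.02 and 0.01), while some single genes, such as Klb and Fgf10, differed more. Per length, Fgf7, the keratinocyte growth factor, was the most abundant of the FGF genes listed here, with 27.1 ± 1.1 FPKM (SD, n = 3) with aFGF and 27.1 ± 4.66 FPKM with bFGF. Fgf2 stood at 2.66 ± 0.864 and 1.93 ± 0.546 FPKM and Fgf1 at 0.529 ± 0.218 and 0.287 ± 0.0363 FPKM. Fgf1, the mouse's own gene for aFGF, was at 8.63, 7.32 and 15.4 CPM against 5.99, 4.94 and 5.82 CPM, without overlap (0.90 ± 0.31, exact p = 0.1, edgeR adjusted p = 0.594), and Fgf2 overlapped (0.49 ± 0.35, exact p = 0.3). Fgf10, a ligand made by mesenchyme, was higher with aFGF by 1.23 ± 0.48, but at -0.42 with the adipocyte covariate. Of the 11 FGF ligand genes tested, 9 were higher with aFGF, with a median of 0.49 that was -0.05 without aFGF replicate 3.

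Among the receptors, Fgfr1 was the most abundant per length, at 53.2 ± 4.76 and 56.4 ± 9.94 FPKM, and the others stood at 3.57 FPKM or less. None differed beyond its spread: Fgfr1 at -0.06 ± 0.15, Fgfr2 at 0.47 ± 0.48, Fgfr3 at 0.30 ± 0.18 and Fgfr4 at 0.05 ± 0.78, with exact p values from 0.3 to 0.8. Klb, the co-receptor for endocrine FGFs that fat cells express, was higher by 3.46 ± 1.16 and by 0.95 with the adipocyte covariate. DESeq2 called Klb (adjusted p = 0.0429), but in only 2 of the 6 fits that left out a library. The 27 FGF and ERK feedback genes were split 15 higher to 12 lower with a median of 0.01, as over all genes. Only Spry1, a Sprouty inhibitor (0.41 ± 0.14), and Myc (0.61 ± 0.23) had an unadjusted p under 0.05, and Dusp6 (-0.16), Spry4 (0.01) and Etv4 (0.01), ordinarily sensitive targets, lay near 0.

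Repair genes had small differences that were shared within some lists. Of 28 fibroblast collagen and matrix genes, 26 were lower with aFGF, 0 at an unadjusted p under 0.05, with a median of -0.30. Col1a1 was at 14906, 15188 and 9707 CPM against 22136, 20044 and 10827 CPM (-0.42 ± 0.33), so that replicate 3 of both groups was low and the groups overlapped. Acta2, the alpha smooth muscle actin of myofibroblasts that the study stained, was at 258, 297 and 215 CPM against 311, 341 and 159 CPM (-0.08 ± 0.29, exact p = 1), and the 19 contractile genes had a median of 0.10. Pecam1, which encodes the stained vessel marker CD31, was at 328, 328 and 186 CPM against 376, 310 and 195 CPM (-0.08 ± 0.30, exact p = 0.9), and 26 endothelial genes had a median of -0.08, which was 0.15 without bFGF replicate 1 and 0.10 without aFGF replicate 3. All 34 proliferation genes were lower with aFGF, by a median of -0.19, 4 at an unadjusted p under 0.05. Over all genes tested, 3.05% were lower at that p. The 4 were the replication and cell-cycle genes Hells (-0.56 ± 0.21), Ccne2 (-0.49 ± 0.19), Bub1 (-0.39 ± 0.16) and E2f1 (-0.34 ± 0.12), while Mki67 was at -0.12 ± 0.24. Of 28 hypoxia and glycolysis genes, 23 were lower, with 1, Egln3, at an unadjusted p under 0.05 (-1.03 ± 0.40). Their median of -0.33 was -0.12 without bFGF replicate 3, -0.56 without bFGF replicate 1 and 0.071 with the adipocyte covariate.

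Genes that sense or move acid were compared because the gel was acidic in both groups. The proton-sensing receptor genes Gpr4 (0.07), Gpr65 (0.24) and Gpr132 (0.22) had an unadjusted p of 0.05 or more. The acid- and heat-gated channel gene Trpv1, at 2.2, 2.12 and 0.749 CPM against 0.367, 0.0549 and 0.308 CPM, was a DESeq2 call (2.77 ± 0.74) that was lost without aFGF replicate 1 (0.33), aFGF replicate 2 (0.25), bFGF replicate 2 (0.2) or bFGF replicate 3 (0.088), and it was at 0.31 with the adipocyte covariate. Car3, the carbonic anhydrase of fat and muscle, was at 1.60 ± 0.63 and at 0.35 with that covariate. The median over the 24 genes was 0.10. TGF-beta genes (median 0.02), VEGF and angiopoietin genes (-0.05), NF-kappa B genes (0.05), complement and coagulation genes (0.16) and neutrophil genes (-0.07) were near 0 as lists. The neutrophil median was -0.46 without bFGF replicate 1 and 0.29 without bFGF replicate 3. With 1 library left out, the NF-kappa B median ran from -0.13 to 0.18 and the complement median from -0.04 to 0.28. The TGF-beta median ran from -0.04 to 0.09 and the VEGF median from -0.13 to 0.13. In the TGF-beta list, Fst, the activin-binding follistatin (0.84 ± 0.33), and Tgfbr1 (0.22 ± 0.09) were higher and Ltbp2, a matrix protein, lower (-0.86 ± 0.36) at an unadjusted p under 0.05.

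**Figure D4:**
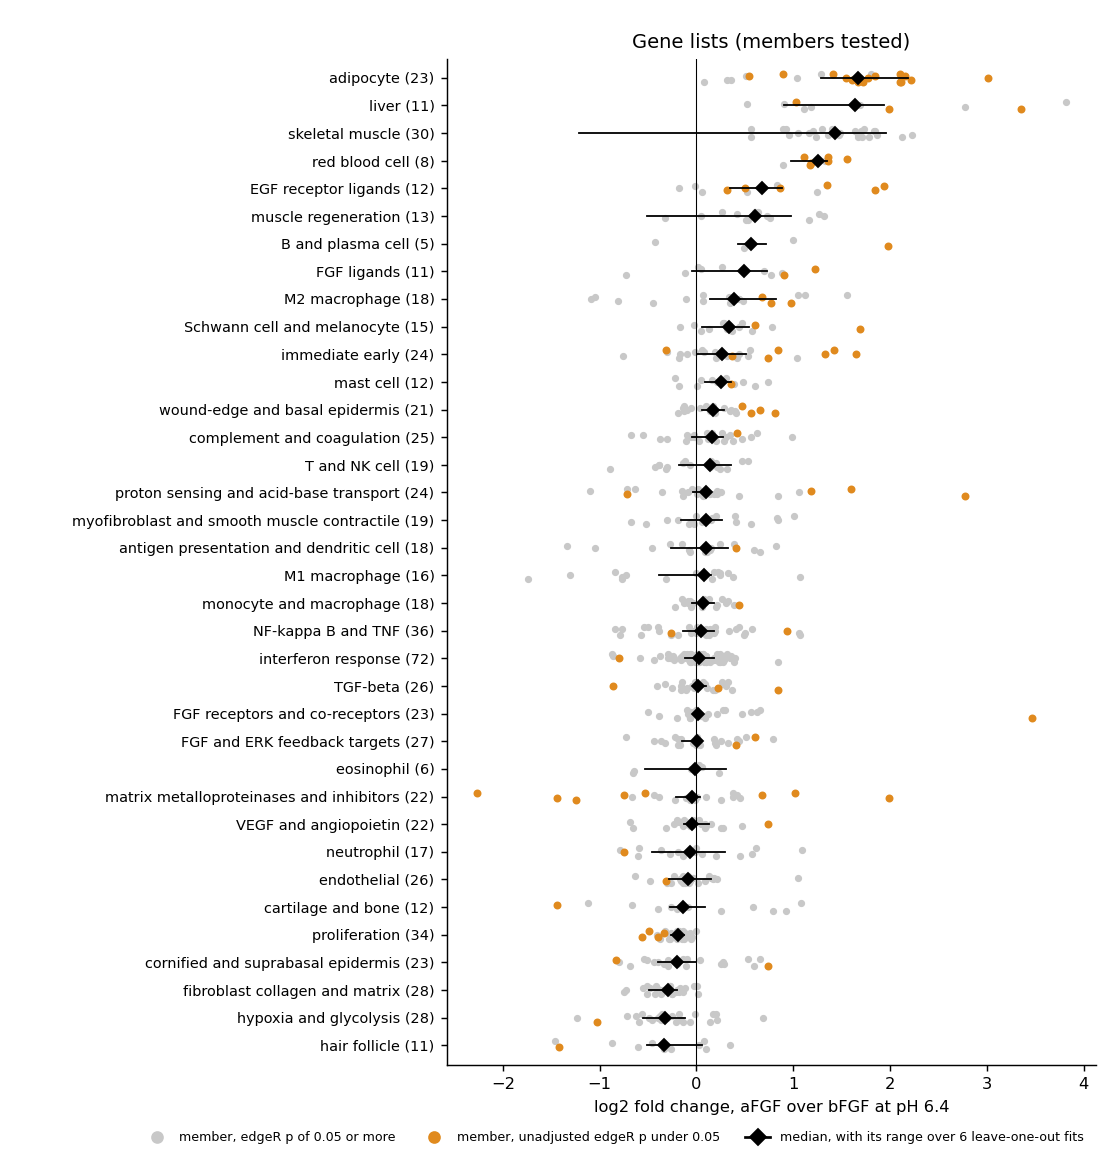
Log2 fold change of aFGF over bFGF at pH 6.4 (edgeR) for the tested members of 36 gene lists, with the number of members in parentheses; orange points have an unadjusted p under 0.05, diamonds are medians and lines are the range of the median when each library is left out in turn. Adipocyte (1.67), liver (1.64), skeletal muscle (1.43) and red blood cell (1.25) lists lie farthest to the right, and the line of skeletal muscle reaches down to -1.22.

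The wounds under gels of pH 7.4 and 8.4 gave a check in 12 other libraries. aFGF was compared with bFGF over those libraries together, a comparison chosen after the leading genes at pH 6.4 had been seen. edgeR called 693 of 15502 genes (4.47%) there, 320 higher (2.06%) and 373 lower (2.41%) with aFGF. This count, too, moved with single libraries, and was 333 and 450 without pH 7.4 aFGF replicates 1 and 2, 319 and 343 without pH 8.4 aFGF replicates 1 and 2, 268 and 286 without pH 7.4 bFGF replicates 1 and 2, and 395 and 387 without pH 8.4 bFGF replicates 2 and 3. Without each of the 12 in turn, 193 genes were still called. Among the DESeq2 calls at pH 6.4, edgeR called 15 of the 89 higher genes and 7 of the 30 lower genes in the same direction. Of the 30 lower genes, 28 were lower at both other pH values, and of the 89 higher ones 34 were higher at both. Over all 14970 genes tested in both fits, 46.2% had the same direction at the 3 pH values. The adipocyte list did not keep its direction there, with a median of -0.60 at pH 7.4 and -0.48 at pH 8.4. The red blood cell list turned at pH 7.4 (median -0.52, 2 of 8 genes higher) but kept its direction at pH 8.4 (median 0.15, 8 of 8 higher).

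Single keratinocyte and MMP genes described above were among the edgeR calls in the 12 other libraries. The wound-edge and basal epidermis list as a whole did not keep its direction. Its median was 0.32 at pH 7.4 (16 of 21 genes higher) and -0.11 at pH 8.4 (7 of 21). The list of EGF receptor ligands and receptors had medians of 0.66 (10 of 12 higher) and 0.34 (8 of 12). Of the genes named next, Ereg, Hbegf, Grhl3 and Itga3 had been called by neither tool in the comparison under the acidic gel. The others had been called there by DESeq2 but not by edgeR. In those 12 libraries Areg rose with aFGF by 1.48 ± 0.33 (edgeR adjusted p = 0.0246), Nrg1 by 1.64 ± 0.38 (0.0268), Ereg by 2.49 ± 0.67 (0.0411) and Hbegf by 0.83 ± 0.23 (0.0471). Has3 rose by 1.26 ± 0.30 (0.0294), Tns4 by 0.97 ± 0.13, Aqp3 by 1.76 ± 0.24, Vdr by 1.61 ± 0.21 and Lypd3 by 0.97 ± 0.13, the last 4 at an edgeR adjusted p of 0.00569, and Grhl3 (0.82 ± 0.14, 0.0118) and Itga3 (0.76 ± 0.15, 0.0169) rose as well. Mmp19 rose by 1.98 ± 0.21 (0.0041), from 146 to 196 CPM in the 6 bFGF libraries to 419 to 986 CPM in the 6 aFGF libraries. Mmp12 fell by 2.42 on the log2 scale (SE 0.33, adjusted p = 0.00569), Mmp10 by 1.76 (SE 0.40, 0.025) and Mmp13 by 1.60 (SE 0.34, 0.0207). Ly6m (1.39 ± 0.35, 0.0344), Map3k6 (0.96 ± 0.26, 0.0407), Adgb (-1.14 ± 0.30, 0.0379), Pcdh18 (-1.07 ± 0.30, 0.0471) and Tchh (-1.22 ± 0.32, 0.0391) were called in the same direction as well. Tns4, Aqp3, Vdr, Lypd3, Grhl3, Itga3, Mmp19 and Mmp12 were called without each of the 12 libraries, whereas Areg and Has3 were called in 6, Mmp13 in 8, Mmp10 in 7, Nrg1 in 4, Ereg, Map3k6, Adgb, Pcdh18 and Tchh in 3, and Hbegf and Ly6m in 2 of those 12 fits. Counted by library alone, the 3 aFGF libraries lay above the 3 bFGF libraries at each of the 3 pH values in 124 genes (0.827%) and below in 107 (0.714%). Areg, Has3, Tns4, Aqp3, Vdr, Lypd3, Grhl3 and Mmp19 were among the former, and Mmp13, Mmp10 and Mmp12 among the latter.

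**Figure D5:**
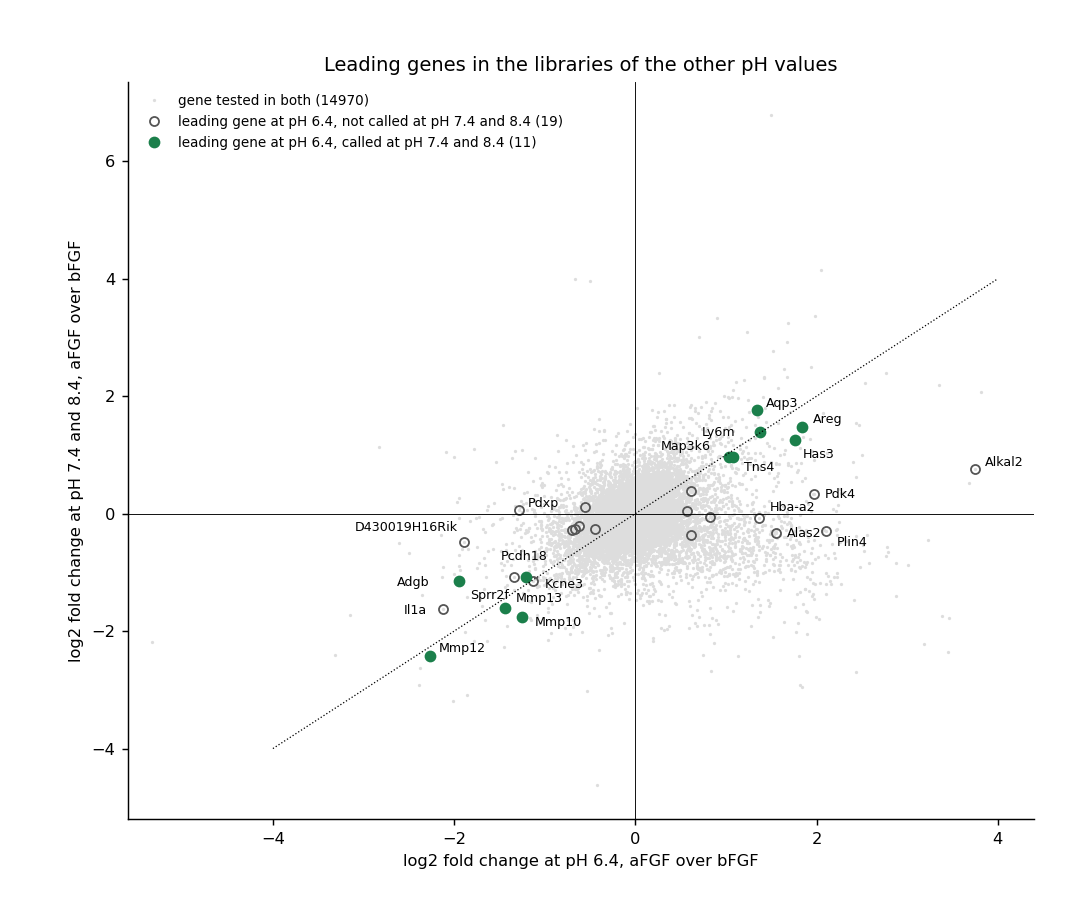
Log2 fold change of aFGF over bFGF at pH 6.4 (6 libraries) against that at pH 7.4 and 8.4 together (12 other libraries), edgeR, 1 point for each of 14970 genes; the dotted line marks equal values. Of the 30 leading genes at pH 6.4, the 11 filled points, among them Areg, Has3, Aqp3, Tns4, Mmp13, Mmp10 and Mmp12, were called at the other pH values, and the 19 open points, among them Alkal2, Plin4 and the haemoglobin genes, were not.

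Whether the difference between aFGF and bFGF was itself another at pH 6.4 was tested by interaction. Against pH 7.4, edgeR called 0 of 15449 genes (smallest adjusted p = 0.765, 941 genes or 6.09% at an unadjusted p under 0.05) and DESeq2 called 28 of 16175 (0.173%). Against pH 8.4, edgeR called 0 of 15461 (smallest adjusted p = 0.521, 1394 genes or 9.02% at an unadjusted p under 0.05) and DESeq2 14 of 15234 (0.0919%). Both interactions used the same libraries of pH 6.4, so a gene in both sets was not found independently. DESeq2 was not rerun on the interactions with single libraries left out. S1pr2 was in both DESeq2 sets: it was lower with aFGF at pH 6.4 (-0.55), and at 0.05 and 0.18 at pH 7.4 and 8.4, an interaction of -0.61 ± 0.13 (DESeq2 adjusted p = 0.0116, edgeR 0.765) and -0.74 ± 0.12 (DESeq2 adjusted p = 8.48e-05, edgeR 0.521). Nrip1 (1.04 ± 0.18 against pH 8.4, DESeq2 adjusted p = 0.00545) and the mitochondrial enzyme genes Crat (1.05 ± 0.17 against pH 7.4, DESeq2 adjusted p = 0.000246) and Idh3a (0.87 ± 0.17, 0.0116) were further DESeq2 calls, with log2 fold changes of 0.62, 0.63 and 0.64 at pH 6.4 and of -0.43, -0.43 and -0.23 at the pH they were set against. Myh11, a smooth muscle myosin gene, was at 0.39 at pH 6.4 and at -1.19 at pH 8.4 (interaction 1.58 ± 0.32, DESeq2 adjusted p = 0.0184). Alkal2 (interactions 2.80 and 3.19, edgeR adjusted p = 0.804 and 0.521) and Apold1 (1.28 and 0.20, edgeR adjusted p = 0.831 and 0.936) were not called as differing between pH values, although neither was called at pH 7.4 and 8.4 together (0.75 ± 0.58, edgeR adjusted p = 0.409, and -0.01 ± 0.48, edgeR adjusted p = 0.992). The interferon list, with a median of 0.03 at pH 6.4, had medians of 0.86 at pH 7.4 and 0.34 at pH 8.4, and Oas3, at -0.07 at pH 6.4, rose by 1.06 ± 0.16 (edgeR adjusted p = 0.00961) with aFGF at those pH values.

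Set against the wounds without hydrogel, the called genes lay on different sides of the controls. Among the 89 genes that DESeq2 called higher with aFGF, all 3 aFGF libraries lay above all 3 controls in 24, as for Areg, Has3, Aqp3 and Tns4, and all 3 bFGF libraries lay below all 3 controls in 19, as for Alkal2 and Ntrk2. Over all 14994 genes tested these shares were 7.52% and 8.33%. Among the 30 called lower, all aFGF libraries lay below all controls in 18, as for Dvl2, and all bFGF libraries lay above all controls in 7, as for Mmp10 and Kcne3, against 7.08% and 7.54% of all genes. The calls were chosen for the distance between the aFGF and bFGF libraries, so the counts describe where they lay and are not tested. The controls had no gel, so these positions compare treated with ungelled wounds and not aFGF or bFGF with an empty gel.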

How the data were processed

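RNA was taken with TRIzol from day-4 wound tissue, and libraries were made with a stranded mRNA kit (TruSeq). The authors deposited 1 table per library with raw read counts per gene and, beside them, FPKM values, which scale the counts by gene length and library total. The submitters' processing notes name the mouse build GRCm39. The aligner, the counting tool and the annotation were not given in the sources used here. FPKM equalled the count divided by the library total and a fixed gene length in all 14938 genes above 0 in every library (largest coefficient of variation of that length 2.06e-05%), so both units carry the same reads. The files listed 18806 genes, 17990 of them with a count in the 6 libraries, and 0 mitochondrially encoded genes. Symbols were used as deposited, and 18669 (99.3%) matched RefSeq names of GRCm38.p6.

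The 6 libraries at pH 6.4 were fitted with edgeR 4.0.16 (TMM scaling, filterByExpr, quasi-likelihood test) in R 4.3.3, with Benjamini-Hochberg adjustment over all genes tested. The thresholds for a call, 0.05 for the adjusted p and 0.58 for the size of the log2 fold change, were those of the study's volcano plot. Interactions with pH were fitted over the 12 libraries of both pH values. Single genes were tested by exact two-sided permutation on CPM. List scores are means of log2 CPM with a prior count of 2. p-values measure the spread between the 3 libraries per group, which were labelled as biological replicates. Alternatives were DESeq2 1.42.0, limma 3.58.1 on log2 FPKM (pseudocount 1 or 0.1, genes averaging 1 FPKM or more, or all genes), RLE scaling, no filter, at least 10 counts, robust dispersion, all 21 libraries, a replicate block, a skeletal muscle covariate and each library left out. The adipocyte covariate and the comparison at pH 7.4 and 8.4 were added after values had been seen. The fits were run on simulated counts with known changes, where a pass was required of edgeR only, and not of DESeq2 or limma.

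The comparison, the 22 cell type lists and the 14 pathway lists were chosen with earlier results of these data known. Genes were named by rule: those the study stained or named with the FGF receptors, the 12 genes in each direction with the smallest edgeR p at a mean of at least 1 CPM, the 10 in each direction with the smallest adjusted p among DESeq2 calls, the 4 most abundant members of each list with any member at an unadjusted p under 0.05 or called by DESeq2, the 4 in each direction for each interaction, and genes high in 1 library alone (over 0.5 CPM and 8 times the next library plus 0.05 CPM). Genes named for their stability without each library or at the other pH values were chosen after their values were seen. Not every gene the rule allows is described.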

Additional observations from a re-analysis of the deposited data

How the results depend on the processing

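The edgeR count of 0 at pH 6.4 was also 0 with RLE scaling, without a filter, with at least 10 counts, with robust dispersion, over 21 libraries, with either covariate, with limma on FPKM, without a fold threshold and without each library. The replicate numbers were not a pairing by the labels: deviations of same-numbered libraries correlated at -0.017, 0.022 and 0.056, and other pairs between -0.093 and 0.071, so not every library correlated best with its own number. With the replicate block the count was 0 again, and in the comparison at pH 7.4 and 8.4 it was 600 in place of 693. DESeq2 called 119 genes, or 116 with Cook's cutoff and independent filtering switched off, and leaving out 1 library gave from 0 (edgeR) to 284 (DESeq2, without aFGF replicate 3). The interaction counts of 0 in edgeR were 28 and 28 against pH 7.4, and 14 and 19 against pH 8.4, under those DESeq2 settings. At pH 7.4 and 8.4 together DESeq2 called 1176 and 1163, limma on log2(FPKM + 1) 359 with and 276 without its filter, edgeR without a fold threshold 1682, and edgeR without 1 library from 268 to 979. The tools differ in how they estimate the spread of 3 libraries, and the cause of these differences was not tested. Of 3293 log2 fold changes of 133 genes under the alternatives, 2886 kept their direction and side of the threshold, 363 passed it and 44 turned sign. With the adipocyte covariate, Fabp4 and Adipoq, which are part of its score, were at -0.13 and -0.27. In the same fit Arg1 was at 0.080, Nos2 at 0.25, Fgf10 at -0.42, Fgfr2 at -0.32, Oas3 at 0.22 and Tnfsf14 at 0.53. Fgfr4 was at -0.31 with the replicate block, -0.032 by limma without a filter and -0.48 with the muscle covariate. Without 1 library, by edgeR or DESeq2, Ccr7 ran from -0.072 to 0.72, Acta2 from -0.37 to 0.12, Pecam1 from -0.32 to 0.15, Mki67 from -0.28 to 0.090, Fgfr1 from -0.19 to 0.048, Fgfr2 from -0.041 to 1.03, Fgfr4 from -1.28 to 0.44, Oas3 from -0.26 to 0.14 and Rnf213 from -0.056 to 0.10. Of 900 list medians, 852 moved by less than 1 SD and 48 by more. With 3 libraries a group, exact tests cannot give a p below 0.1, and genes at few counts, such as Mcpt2 and Adgb, carry counting error that limits their folds.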

Other observations

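Growth and ribosome genes were among those whose aFGF and bFGF libraries did not overlap at any of the 3 pH values, in the same direction each time. They were picked from the 124 higher and 107 lower genes of that kind after their values had been seen, and none was an edgeR call at pH 6.4. The choice used the libraries of pH 7.4 and 8.4, so the adjusted p values from those libraries give no separate support. No list of growth or ribosome genes was tested. Odc1, the first enzyme of polyamine synthesis, was higher with aFGF at pH 6.4 by 0.99 on the log2 scale and by 1.46 at pH 7.4 and 8.4 together (edgeR adjusted p = 0.00961 there). The cytokine gene Clcf1 stood at 0.83 and 1.29 (0.00603), the sphingosine kinase gene Sphk1 at 0.77 and 1.40 (0.00554) and Tnfrsf12a, the receptor for the cytokine TWEAK, at 0.60 and 1.15 (0.00569). Nucleolar genes that serve ribosome assembly had smaller values: Ddx21 was at 0.55 and 0.61 (0.0246), Gnl3 at 0.44 and 0.68 (0.0123), Heatr1 at 0.37 and 0.79 (0.0216) and nucleolin (Ncl) at 0.35 and 0.46 (0.00961). On the lower side were the matrix gene Ltbp2 at -0.86 and -1.12 (0.0149), the platelet-derived growth factor receptor gene Pdgfrb at -0.68 and -0.86 (0.0472) and N-cadherin (Cdh2) at -0.55 and -0.79 (0.0176).

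Some genes were high in a single library of the 6: 8 in aFGF replicate 1, 4 in aFGF replicate 2, 24 in aFGF replicate 3, 0 in bFGF replicate 1, 1 in bFGF replicate 2 and 4 in bFGF replicate 3. The T cell cytokine genes Il17f and Il22 were at 12.6 and 3.75 CPM in bFGF replicate 3 and at no more than 0.758 and 0.287 CPM elsewhere. The macrophage receptor gene Marco was at 86.2 CPM in bFGF replicate 2 against 10.7 CPM in the next library. The plasma protein genes Itih4 and Fgb were at 61.6 and 31.3 CPM in aFGF replicate 1 against 7.53 and 2.23 CPM. Upk3b, a gene of mesothelium and urothelium, was at 5.80 CPM in aFGF replicate 3 against 0.311 CPM.

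The remaining cell type lists had these medians of the log2 fold change at pH 6.4. The T and NK cell list stood at 0.14 over 19 genes. At pH 7.4 its median was 1.55, but its mean log2 CPM overlapped there, at 1.78 to 4.43 with aFGF and 1.58 to 1.96 with bFGF. At pH 6.4 the mast cell list stood at 0.26 over 12 genes, the Schwann cell and melanocyte list at 0.34 over 15, the B and plasma cell list at 0.56 over 5, the eosinophil list at -0.02 over 6 and the dendritic cell list at 0.10 over 18. Leaving out 1 library turned the sign of 3 of these: the T and NK cell median ran from -0.18 to 0.36, the eosinophil median from -0.53 to 0.31 and the dendritic cell median from -0.26 to 0.33. The hair follicle list stood at -0.34 over 11 genes and the cartilage and bone list at -0.14 over 12, and without bFGF replicate 1 they were at 0.052 and 0.084. The muscle regeneration list stood at 0.61 over 13 genes, and at -0.51 without aFGF replicate 3.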
